A study of Mus musculus with 2 samples.

Results

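Broad accessible regions of the adult mouse cortex, 2000 bp or longer in each of 2 DNase-seq libraries, were described for their genes, sequence and differences between animals. DNase-seq cuts the DNA of nuclei with DNase I, and cuts are dense where DNA is free of nucleosomes. The tissue of both libraries was left cerebral cortex. The mice were females of 2 months of the hybrid B6CASTF1/J, whose parent strains are C57BL/6J and CAST/EiJ. They are biological replicates 1 and 2, from separately numbered females, although the labels give both the same donor entry. No treatment, edited gene or second group is named, so every animal shares 1 genotype, tissue and age, and no groups could be compared.

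The regions were chosen by a measured value, the false discovery rate (FDR) that the authors gave to the local cut rate. Neighbouring rows below an FDR of 0.05 were joined on chromosomes 1 to 19. Joined stretches of at least 2000 bp numbered 1497 in replicate 1 and 792 in replicate 2. Of these, 600 and 599 overlapped a stretch of at least 2000 bp in the other library, and their unions gave 596 broad regions. The libraries shared 67216 stretches of 50 bp or more in all. Their length, peak height and FDR are therefore given as a description, and no test was run on them. The peak heights moved in fixed steps that give depths of 206 M cuts (replicate 1) and 208 M (replicate 2) if a step is 1 cut per M. The cortical label was compared with the starts of marker genes. A stretch of 50 bp or more covered a start in both libraries at 12547 of 20807 protein-coding genes. It did so at 18 of 18 excitatory neuron genes, 0 of 20 hepatocyte genes and 0 of 20 muscle genes. The counts were 12 of 19 for inhibitory neuron, 12 of 18 for astrocyte and 11 of 17 for oligodendrocyte genes. They were 3 of 16 for microglial and 7 of 18 for endothelial or pericyte genes. The counts set the tissue apart from liver and muscle, but do not by themselves show that it is cortex.

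Most accessible elements are about as wide as the DNA freed by losing 1 nucleosome or a few, flanked by positioned nucleosomes. Long accessible stretches are known from promoters in CpG islands, which are sequences that kept their CpG dinucleotides because they stay unmethylated. In neurons they are also known at genes that respond quickly to activity, where promoter, gene body and nearby enhancers can open together. An enhancer is a regulatory element that acts on a promoter from a distance.

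Of the 596 broad regions, 8 are shown by the 200 bases at their strongest peak that touches no annotated exon, read from mm10 on the plus strand. They were picked to show the main kinds of broad region: a clock gene, a gene of the immediate early response, a cell cycle inhibitor, a chromatin regulator, an imprinted gene and 3 places away from any start. Capitals mark every match to the 12 motifs searched.
Per2, chr1:91459371-91459570, upstream of the start: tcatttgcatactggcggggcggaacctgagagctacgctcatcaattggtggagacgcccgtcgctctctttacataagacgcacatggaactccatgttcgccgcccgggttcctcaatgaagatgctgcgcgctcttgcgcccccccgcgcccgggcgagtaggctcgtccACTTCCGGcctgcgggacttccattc
Egr3, chr14:70075031-70075230, upstream of the start: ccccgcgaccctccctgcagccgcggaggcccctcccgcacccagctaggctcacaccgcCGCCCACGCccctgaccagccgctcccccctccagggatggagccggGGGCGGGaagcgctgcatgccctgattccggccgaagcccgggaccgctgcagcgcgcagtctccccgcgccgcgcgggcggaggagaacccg
Cdkn1a, chr17:29095491-29095690, intron of Cdkn1a: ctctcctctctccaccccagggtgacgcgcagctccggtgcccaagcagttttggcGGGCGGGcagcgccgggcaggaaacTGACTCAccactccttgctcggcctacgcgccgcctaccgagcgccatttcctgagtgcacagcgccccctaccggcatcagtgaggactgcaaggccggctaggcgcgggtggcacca
Kmt2a, chr9:44881381-44881580, upstream of the start, in an intron of the overlapping gene AC061963.1: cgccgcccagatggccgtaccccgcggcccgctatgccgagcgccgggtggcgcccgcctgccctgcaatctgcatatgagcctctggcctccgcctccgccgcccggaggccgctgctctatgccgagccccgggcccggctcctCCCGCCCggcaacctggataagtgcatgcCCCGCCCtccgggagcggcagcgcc
Peg3, chr7:6729501-6729700, intron of Peg3: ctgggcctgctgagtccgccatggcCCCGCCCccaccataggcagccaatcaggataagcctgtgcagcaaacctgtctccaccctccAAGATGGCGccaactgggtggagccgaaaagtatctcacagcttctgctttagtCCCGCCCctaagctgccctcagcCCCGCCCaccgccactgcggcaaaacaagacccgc
Kdm6b, chr11:69411181-69411380, intron of Kdm6b, no start within 1 kb of the region: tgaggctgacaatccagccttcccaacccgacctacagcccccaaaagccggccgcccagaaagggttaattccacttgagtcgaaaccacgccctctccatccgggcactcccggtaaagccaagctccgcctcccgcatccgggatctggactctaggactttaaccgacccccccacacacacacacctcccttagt
Fam13c, chr10:70519791-70519990, intron of Fam13c, no start within 1 kb of the region: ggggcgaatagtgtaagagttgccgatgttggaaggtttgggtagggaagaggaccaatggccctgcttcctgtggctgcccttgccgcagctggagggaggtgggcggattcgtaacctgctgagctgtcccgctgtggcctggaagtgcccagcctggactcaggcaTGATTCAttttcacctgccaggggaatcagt
Near Nnmt, chr9:48646341-48646540, outside genes: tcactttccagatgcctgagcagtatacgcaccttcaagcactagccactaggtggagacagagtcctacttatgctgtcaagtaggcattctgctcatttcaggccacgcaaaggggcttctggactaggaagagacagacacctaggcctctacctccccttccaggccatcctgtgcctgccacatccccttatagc

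These windows ran from CpG-rich promoter sequence to ordinary sequence. The Kmt2a window had 25 CpG and a GC content of 76.5%, and the Egr3 window 25 CpG and 78.0%. The window near Nnmt had 2 CpG in 200 bases and a GC content of 53.5%. In Per2 the capitals are an ETS word, in Kmt2a the SP/KLF word, and in Egr3 an EGR word beside an SP/KLF word. The Cdkn1a window held an AP-1 and an SP/KLF word, the Fam13c window an AP-1 word, and the Peg3 window a YY1 word among 3 SP/KLF words. The Kdm6b window and the window near Nnmt held none of the 12. Peak height in these windows was 7.19 in replicate 1 and 7.41 in replicate 2 at Per2, and 1.24 and 1.64 near Nnmt. The peak of Per2 was thus higher than that near Nnmt in both libraries.

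The broad regions covered 1.75 Mb, or 0.0709% of chromosomes 1 to 19. Their union length ranged from 2011 to 15961 bp with a median of 2563 bp, and 166 reached 3000 bp, 61 reached 4000 bp and 32 reached 5000 bp. The median length was 2516 bp in replicate 1 and 2336 bp in replicate 2, a mean of 2426 ± 127 bp (SD, n = 2). Of the regions, 464 were longer in replicate 1 and 131 in replicate 2, so replicate 1, which also had more stretches above the limit, was the longer one in most. Where a region joined several stretches of 1 library, its length there is their sum. The part common to both libraries made up a median of 94.3% of the union, with a lowest value of 3.78%. Just inside the limit lay Samd5 (2065 and 2000 bp in replicates 1 and 2), Lnpep (2007 and 2001 bp) and Mllt10 (2088 and 2002 bp). Just outside lay the starts of Gucy1a2 (1999 and 2008 bp) and Galnt17 (2505 and 1998 bp).

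**Figure D1:**
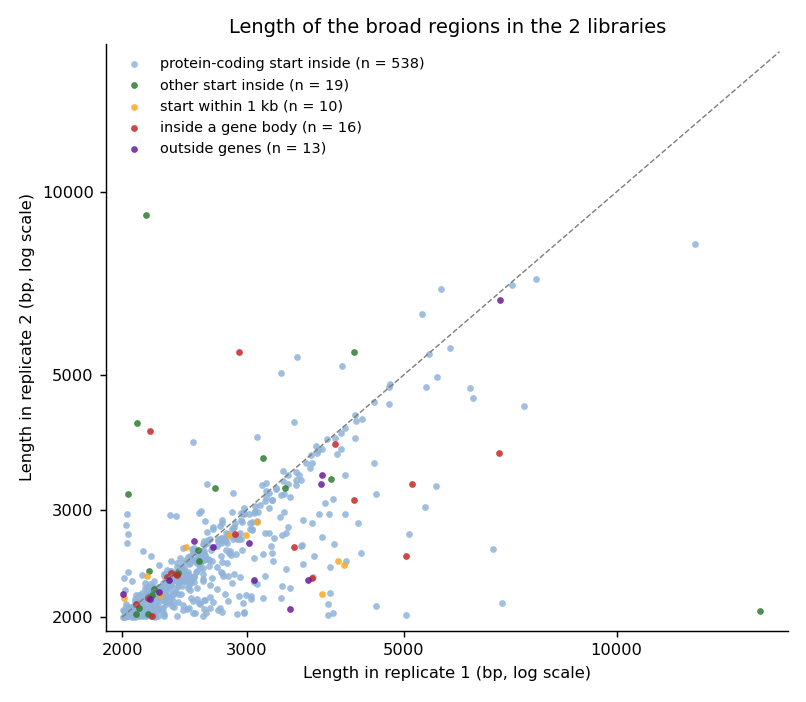
Length of each of the 596 broad regions in replicate 1 (x axis) and replicate 2 (y axis), in bp on log scales, coloured by position; the dashed line marks equal lengths. Points below the line are the 464 regions longer in replicate 1. The point at the lower right is the region at Dcp1b, 15961 bp in replicate 1 and 2049 bp in replicate 2, which holds no protein-coding start.

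Broad regions were mostly promoters. A protein-coding transcription start site (TSS) lay inside 538 of 596 (90.3%), against 86.0% of the 5456 shared stretches of 1000 to under 2000 bp, 51.6% of 10429 of 500 to under 1000 bp and 5.34% of 38571 of 150 to under 500 bp. In each shorter class, the stretches of both libraries reach the lower limit and their union overlaps no region of a longer class. A stretch of 1 library can thus exceed the upper limit. Another annotated start lay inside 19 broad regions, and a start within 1 kb of 10. Gene bodies held 16 away from any start, and 13 lay outside genes. Intron made up 40.6% of the bases, protein-coding exon 29.8% and sequence outside protein-coding genes 29.6%. Over chromosomes 1 to 19 the same shares were 37.3%, 2.94% and 59.7%. The exon share was close to that of the stretches of 1000 to under 2000 bp (28.8%).

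The sequence of broad regions was that of CpG islands, and did not differ in its median from that of the next shorter class. The CpG observed over expected ratio, which is near 1 where CpG has not been lost, had a median of 0.739 in broad regions and of 0.739 in stretches of 1000 to under 2000 bp. It was 0.568 from 500 to under 1000 bp and 0.274 from 150 to under 500 bp. Median GC content was 62.1% and 61.2% in the 2 longest classes. Windows of 200 bases that met the usual island limits (GC content of at least 50%, ratio of at least 0.6) covered a median of 84.8% and 83.3% of the bases. Over the 596 regions, union length and CpG ratio had a Spearman's rho of -0.395, so the longest regions were poorer in CpG. This is across regions that share both libraries, and length itself set membership.

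Broad did not mean strongest. The highest peak of a region had a median height of 3.16 in replicate 1 and 3.44 in replicate 2 (mean 3.30 ± 0.20, SD, n = 2), in the authors' depth-normalised units. In the stretches of 1000 to under 2000 bp it was 3.29 and 3.57 (mean 3.43 ± 0.202, SD, n = 2). Broad regions thus had the slightly lower median in each library. The SD is that of the libraries, in which both classes shifted alike, and does not measure the spread of this difference. Across the broad regions, length and mean height had a rho of -0.154, and CpG ratio and height one of 0.342. Height itself repeated closely, with a rho of 0.968 between the libraries and every region within 2-fold. A region held a median of 4 peaks in each library, and 20 footprints in replicate 1 against 15 in replicate 2. A footprint is a short protected stretch where a bound protein blocks DNase I. Footprints per kb were 7.46 and 5.62 in broad regions, and 7.38 and 5.92 in stretches of 1000 to under 2000 bp.

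The strongest peak of all belonged to a region with no start within 1 kb, which is named here after its values were seen. This region on chromosome 6 (47647877 to 47651701), outside genes and 52536 bp from the nearest protein-coding start, that of Ezh2, had peak heights of 9.54 and 12.1 (mean 10.8 ± 1.84, SD, n = 2). At the other end, 20 regions had no peak of height 1 or more in either library. Their median length was 3659 bp, against 2548.5 bp for the other 576, and their median CpG ratio 0.277 against 0.742. Of the 20, 15 held no protein-coding start, against 43 of the 576. The 5 that did were Phf24, Tbx18, Ntn1, Insm2 and Nfatc4. Nfatc4 encodes a calcium-regulated transcription factor, and its region ran for 5570 and 4972 bp with heights of only 0.635 and 0.725.

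**Figure D2:**
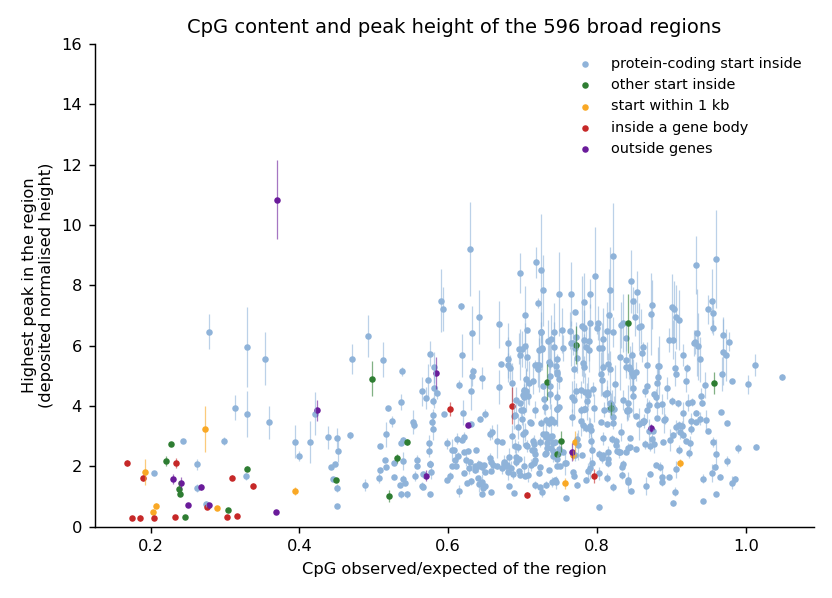
CpG observed/expected ratio (x axis) and height of the highest peak (y axis, deposited depth-normalised units) of the 596 broad regions, coloured by position; points are means of the 2 libraries and vertical lines join their values. Regions in gene bodies and outside genes had lower median CpG ratios and heights than those with a protein-coding start, but the groups overlap. The highest point is the region outside genes at 9.54 and 12.1.

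Position and sequence went together. Regions with a protein-coding start had a median CpG ratio of 0.746 and a height of 3.35 and 3.60 in replicates 1 and 2. The 16 in gene bodies away from any start had 0.289, and heights of 1.30 and 1.11. The 13 outside genes had 0.370, and heights of 1.87 and 1.76. Median union lengths of these 3 groups were 2533 bp, 3627.5 bp and 3081 bp. The groups overlapped in every measure: the CpG ratio reached 0.796 in the gene bodies and fell to 0.205 in the promoters. The 449 stretches of 1000 to under 2000 bp without a start within 1 kb were also CpG-poor, with a median ratio of 0.385 against 0.310 for the 29 broad regions of that kind.

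Around the start, broad regions reached farther into the gene than away from it. Over the 478 regions whose coding starts belong to 1 gene, the median distance from the most upstream coding start to the upstream end was 915 bp, and to the downstream end 1713.5 bp. The median difference was 817.5 bp, and 374 of 478 (78.2%) reached farther downstream. Within single libraries the medians were 907 and 1704 bp in replicate 1, and 800 and 1592 bp in replicate 2. The direction was shared with the stretches of 1000 to under 2000 bp, of which 79.4% reached farther downstream, with medians of 528 and 915 bp. The size depended on which start was used. Where all starts of the gene lay within 100 bp (259 regions) the medians were 1000 and 1618 bp and the difference 662 bp. Measured from the most downstream start inside the region, it was 70 bp, and 52.5% reached farther downstream, close to an even split.

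**Figure D3:**
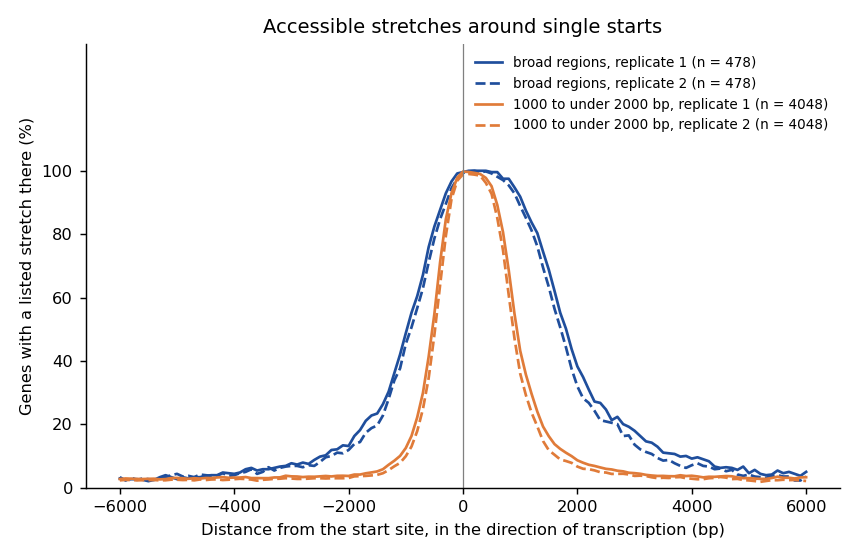
Percent of genes with a listed stretch (y axis) by distance from the most upstream coding start in the direction of transcription (x axis, bp), for 478 broad regions and 4048 stretches of 1000 to under 2000 bp in each library. At 1500 bp downstream 68.8% and 63.4% of the broad regions were covered in replicates 1 and 2, and at 1500 bp upstream 23.4% and 19.7%.

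A pair of genes started in 60 regions, and in 48 of them the genes pointed away from each other, so that 1 open stretch spanned both promoters. Of 628 such pairs in stretches of 1000 to under 2000 bp, 465 (74.0%) pointed away from each other, against 80.0% of the 60. No region held more than 2. Among the longest of the 60 were those of Aspdh with Josd2, of Parp3 with Rrp9 and of Diablo with Gm49027. At the other end, the unions of 9 regions contained 10 whole protein-coding genes. Among them were Arc, Gadd45g, Trex1, which encodes a DNA exonuclease, Borcs6 and the linker histone gene Hist1h1e. In 65 genes the region covered 50% or more of the body. Most genes were far longer than their region: a median of 2.70% of the body was covered, and median gene length was 57630.5 bp, against 17629 bp for all 20807 protein-coding genes. The latter include 7583 genes with no stretch over a start in either library. Gene length was not compared with that of open genes alone.

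Of the 12 longest regions with a coding start, the first described are at genes of receptors and adhesion proteins. At Grin2a, which encodes a subunit of the NMDA glutamate receptor, the region (chromosome 16, 9989352 to 9997502) was 7686 bp long in replicate 1 and 7200 bp in replicate 2. It reached 2579 bp upstream and 5571 bp downstream of the start, with peak heights of 2.13 and 2.04. At Grid1, an orphan glutamate receptor gene, it was 5646 and 6915 bp long. The adhesion genes Pcdh7, Pcdh10 and Pcdh17 encode protocadherins. Pcdh7 (chromosome 5, 57714597 to 57721731) had 7124 and 7031 bp and Pcdh17 had 6270 and 4579 bp. Pcdh10 (6682 and 2591 bp) was split in replicate 2, where listed rows covered 86.0% of the union. Ephb1, an ephrin receptor of axon guidance, had 5315 and 6294 bp, and its region reached 6811 bp into the gene but 380 bp upstream.

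Cdkn1a encodes the cell cycle inhibitor p21 (chromosome 17, 29091980 to 29099528). Its region was 7402 bp in replicate 1 and 4441 bp in replicate 2, with heights of 5.61 and 7.03. Mycn, a growth regulator of the Myc family, had 6204 and 4767 bp. Marcks encodes an actin-binding substrate of protein kinase C, and its region (5810 and 5534 bp) lay almost evenly about the start, with 2820 bp upstream and 2989 bp downstream. The libraries were closer at Marcks and Pcdh7 than at Cdkn1a and Mycn. The longest with a coding start, at Aspdh and Josd2 (chromosome 7, 44459979 to 44473620), measured 12891 and 8204 bp. Parp3 with Rrp9 had 5431 and 5418 bp.

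The longest region of all lay at Dcp1b, an mRNA decapping factor gene (chromosome 6, 119214093 to 119230053), and held another annotated start but no protein-coding one. It was 15961 bp in replicate 1 and 2049 bp in replicate 2, with heights of 1.03 and 1.51. In replicate 2, rows below the FDR limit still covered 45.8% of its bases, so it was broken into pieces there. The region nearest Col6a1, a collagen VI gene (chromosome 10, 76726756 to 76735919), holds the start of the RNA gene Gm48276 and went the other way, with 2163 bp in replicate 1 and 9164 bp in replicate 2. Rows in replicate 1 covered 54.7% of it. Over all regions, lengths were within 1.5-fold in 557 (93.5%) and over 2-fold apart in 7. Besides Dcp1b and the region nearest Col6a1, the 7 were Arc, Pcdh10, Erf (5034 and 2018 bp), Cdk5r1 (4565 and 2089 bp) and a region in Trappc9 (5042 and 2519 bp), all longer in replicate 1; Erf and Cdk5r1 are named after their values were seen. After the region nearest Col6a1, the next lowest ratios of replicate 1 to replicate 2 were those of Leng8 (2097 and 4177 bp) and of a region in Pcbp3 (2922 and 5459 bp). Length had a rho of 0.710 between the libraries. The rule kept only lengths of at least 2000 bp in both, so this value cannot be set against that of height.

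The longest region without any start within 1 kb lay outside genes on chromosome 9 (48643776 to 48651690), 38623 bp from the start of Nnmt, a nicotinamide methyltransferase gene. It was 6845 and 6650 bp long and held 12 and 11 peaks, of which the highest reached 1.24 and 1.64. It was thus long and held many low peaks. The same was seen in gene bodies: the region in Vps33a, a vesicle sorting gene (6827 and 3726 bp), held 11 and 12 peaks with a maximum of 0.349 and 0.283. Those in Llgl1, a cell polarity gene (5144 and 3308 bp), and in Trappc9 (5042 and 2519 bp) peaked at 0.630 and 0.687, and at 0.334 and 0.264. In contrast, the region in Kdm6b, which encodes a histone H3 lysine demethylase (4002 and 3846 bp), peaked at 3.68 and 4.13 and had a CpG ratio of 0.603. Regions in Myo1d (4252 and 3119 bp) and Fam13c (2192 and 4050 bp) lay between, with highest peaks of 1.96 and 2.28, and of 1.44 and 1.26. The remaining ones among the 10 longest were near Rps6kc1 (3452 and 2063 bp), near Pck1 (3831 and 3427 bp) and the one in Pcbp3. The stretches near Rps6kc1 had only 3.78% of their union in common, the lowest share of all broad regions.

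Footprints were most numerous at Ppp2r3d, a phosphatase subunit gene (53 and 51 in replicates 1 and 2), Grin2a (49 and 46) and the region of Brd2 with H2-DMa (51 and 40). They were fewest near Cyp26b1, a retinoic acid hydroxylase gene (5 and 6), in an intergenic region near Ackr2 (7 and 5) and in Bin1 (7 and 5). All of the latter 3 lacked a protein-coding start. Across regions, length and footprint number had a rho of 0.485. In 3 regions, at Cdk6, Zbtb10 and Smarca5, over 20% of the 31-base words recurred in the nuclear genome, with shares of 22.4%, 28.5% and 27.0%. Reads of such words have more than 1 possible place. The median share over the broad regions was 0.0305%.

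Of 20807 protein-coding genes on chromosomes 1 to 19, 594 (2.85%) had a coding start in a broad region. Among the 12547 with a stretch of 50 bp or more over a start in both libraries, 593 did (4.73%). The gene lists below are read against these shares, as counts without a test, since the members were chosen from the same data. The list medians are of the longest stretch over a start, which was 738 bp in replicate 1 and 609 bp in replicate 2 over all genes.

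Immediate early genes are switched on within minutes of neuronal activity, before new protein is made. A broad region lay at 7 of 22 (31.8%), and the list median was 1975.5 bp in replicate 1 and 1666.5 bp in replicate 2. Arc, a synaptic regulator of glutamate receptor uptake, lay whole inside the union (chromosome 15, 74667146 to 74674038), which is the replicate 1 stretch of 6893 bp. The replicate 2 stretch of 2111 bp ran only from 74671823 to 74673933, and heights were 5.88 and 7.04. Jun, an AP-1 subunit, had 4075 and 3784 bp with heights of 5.68 and 6.53. Of the EGR zinc finger genes, Egr3 had 5554 and 3286 bp, Egr4 2667 and 2688 bp and Egr1 2101 and 2042 bp. Fosl2, another AP-1 subunit, had 2077 and 2013 bp, and the nuclear receptor gene Nr4a3 2649 and 2679 bp. Several others stopped short of the limit in 1 or both libraries. Fos reached 1903 and 1766 bp, Bdnf, a neurotrophin gene, 2017 and 1923 bp, Dusp1 1974 and 2060 bp, and Egr2 4281 and 673 bp. Npas4, an activity-dependent factor of inhibitory synapses, had 1518 and 0 bp. The list thus held genes near the limit rather than a clear gap, and 13 of 22 passed at a minimum of 1500 bp.

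Regulators that feed back on signalling came next to them, with broad regions at 8 of 20 (40.0%) and list medians of 2205 and 1862 bp. Spry2, Spred1 and Spred2 inhibit the Ras and MAP kinase pathway, and had 2215 and 2219 bp, 2935 and 2750 bp, and 2488 and 2447 bp. The MAP kinase phosphatase gene Dusp4 had 2854 and 2528 bp. In the whole family of dual specificity phosphatases, counted after its values were seen, Dusp4 was the only 1 of 22 (4.55%). Socs2 (3593 and 2631 bp) and Socs3 (2785 and 2692 bp) inhibit cytokine receptor signalling. Gadd45g, a stress response gene, lay whole inside the union of stretches of 2972 and 3022 bp. Per2, a clock gene that is also induced by signalling, had 2489 and 2257 bp. Among those without one, Dusp6 (3850 and 1742 bp), Per1 (3350 and 731 bp) and Gadd45b (2195 and 1178 bp) were long in replicate 1 only, and Spry4 (1952 and 2472 bp) in replicate 2 only.

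Chromatin regulators had broad regions at 6 of 19 (31.6%), with list medians of 1776 and 1599 bp. Kmt2a, a histone H3 lysine methyltransferase gene, had 2871 and 3195 bp with heights of 7.74 and 9.07, among the higher ones. The chromatin remodelling subunit genes Arid1a (3415 and 2398 bp), Arid1b (3049 and 2777 bp) and Smarca2 (4357 and 2550 bp) belong to the BAF complex. The acetyltransferase gene Ep300 had 2243 and 2137 bp. Setd5 had 2590 and 2465 bp, in a region shared with the Rosa26 gene, Gt(ROSA)26Sor, long used as a site for transgenes. Of the circadian clock genes, 3 of 19 (15.8%) had one: Per2, Nfil3 (2461 and 2293 bp) and Bhlhe40 (3450 and 3149 bp), which encode repressors. At a minimum of 1500 bp the clock list had 10.

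Telencephalic transcription factors, which pattern the cortex, had broad regions at 4 of 22 (18.2%), with list medians of 1237.5 and 873 bp. They were Pou3f2 (4131 and 4091 bp), Cux1 (3224 and 3023 bp), Tbr1 (3266 and 2474 bp) and Pou3f1 (2512 and 2312 bp). The libraries disagreed at others. Pou3f3 had 6859 and 552 bp, whereas Zbtb18 had 1020 and 3494 bp. Bcl11b had no stretch over a coding start in either. Over all genes, 586 without a broad region had at least 2000 bp over a start in replicate 1 only and 108 in replicate 2 only.

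Each list of genes of a single cell type had a broad region at 0 or 1 gene, counts too small to set apart from the 2.85% of all genes. Of 18 excitatory neuron genes none did. Tbr1, also planned as a marker of excitatory neurons, had a broad region but was counted only in the telencephalic list. Camk2n1, an inhibitor of the synaptic kinase CaMKII, came closest with 2054 and 1962 bp, and Slc17a7, the cortical vesicular glutamate transporter gene, had 793 and 631 bp. The inhibitory neuron list had 1 of 19 (Maf, 2967 and 2114 bp), the oligodendrocyte list 1 of 17 (Bin1, 2141 and 2018 bp) and the glial transcription factor list 1 of 20 (Id4, 2599 and 2553 bp). Astrocyte, microglial and endothelial or pericyte genes had 0 of 18, 0 of 16 and 0 of 18. Their starts differed in how often they were open at all: a stretch of 50 bp or more lay over a start in both libraries at 12, 3 and 7 of them, and 11 microglial and 9 endothelial or pericyte genes had none in either. Of all 20807 protein-coding genes, 12547 had one in both libraries and 7583 in neither, so the astrocyte list was near the share of all genes. In whole tissue, fewer cells of a type and less opening per cell cannot be told apart. Glutamatergic synapse genes had 1 of 19 (Grin2a) and ion channel genes 2 of 19, the calcium channel gene Cacna1c (2828 and 2342 bp) and the potassium channel gene Kcna1 (2861 and 2273 bp).

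Ribosomal protein, oxidative phosphorylation and heat shock lists had 0 or 1 gene each, beside 4.73% of open genes. Ribosomal protein genes had a stretch over a start in both libraries at 20 of 20, and a broad region at 0 of 20. Their list medians were 1002 and 1012 bp, the smallest difference between libraries among the lists with a median above 0. Oxidative phosphorylation genes had 0 of 19, with 1133 and 1019 bp. The heat shock and stress list had 1 of 20, Hsp90ab1, a cytosolic chaperone gene (2412 and 2332 bp), but 9 at a minimum of 1500 bp. Imprinted genes, expressed from 1 parental copy, had 1 of 20, Peg3 (3520 and 3469 bp). Hox and posterior homeobox genes, silent in forebrain, had 0 of 20, and 18 of them had no stretch over a start in either library, as had 19 of 20 hepatocyte and 20 of 20 muscle genes.

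**Figure D4:**
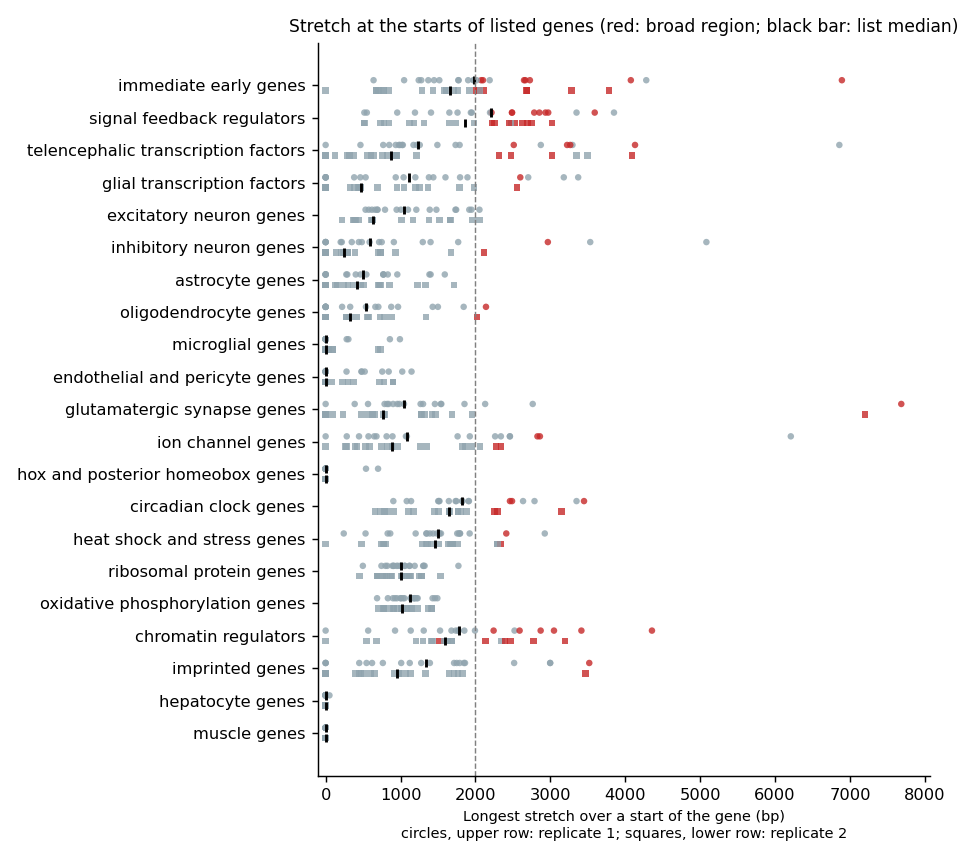
Longest stretch over a coding start (x axis, bp) of each listed gene in replicate 1 (circles) and replicate 2 (squares), by list; red marks genes with a broad region, black bars list medians and the dashed line 2000 bp. Ribosomal protein genes lie close together near their medians of 1002 and 1012 bp, and signal feedback regulators spread across the limit, with medians of 2205 and 1862 bp.

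Some broad regions held RNA genes. Of 2054 annotated microRNA genes on chromosomes 1 to 19, 16 (0.779%) lay inside 15 broad regions, beside 2.85% of protein-coding genes with a start in one. These shares are of unlike kind, since the first counts the annotated gene itself and the second a start. A protein-coding start lay in 12 of the 15. One region without a coding start (chromosome 11, 75171973 to 75174176; 2178 and 2026 bp) held Mir132 and Mir212, a pair known to be induced by neuronal activity, with heights of 4.21 and 5.39. Their main mature products, from RefSeq on GRCm38.p6, share the seed, here in capitals (bases 2 to 8).
mmu-miR-132-3p: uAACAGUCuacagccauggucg
mmu-miR-212-3p: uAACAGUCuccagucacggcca
Another held Mir124a-3, a gene of a microRNA family abundant in neurons (2557 and 2575 bp; heights 3.71 and 4.14). A further one lay at Mirg and Mir3072 in the imprinted cluster of chromosome 12 (3164 and 3655 bp). Of the 16 genes, 10 matched a RefSeq entry by name and place.

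Peaks of broad regions held the GC-rich SP/KLF word more often than peaks at large, and the AP-1, CTCF and E-box words less often. In the 150 bp at the centre of each peak, both strands were searched for 12 words, none of which contains another, although neighbours may share bases. Windows numbered 2701 and 2857 in replicates 1 and 2. The SP/KLF word GGGCGGG was found in 20.2% and 19.4% of broad-region windows, a mean of 19.8% ± 0.532 (SD, n = 2), against 8.11% ± 0.696 of all peaks. In stretches of 1000 to under 2000 bp it was 25.7% ± 0.0736. The EGR word GCGTGGGCG was in 0.718% ± 0.0733 of broad-region windows, against 0.287% ± 0.0223 of all peaks. The AP-1 word TGANTCA was rarer than in all peaks, with 2.05% ± 0.0713 against 7.16% ± 0.991, and so were the CTCF word (0.288% ± 0.0114 against 4.20% ± 0.563) and the NEUROD E-box ACAGATGG (0.413% ± 0.060 against 2.00% ± 0.177). These 5 differences were larger than the SD of the libraries. That SD does not measure the spread of a difference, since both sets come from the same 2 libraries. The CTCF word was found in only 8 broad-region windows of each library, and the NEUROD E-box in 10 and 13. MEF2 (TATTTATA) was in 0.214% ± 0.0933 against 0.434% ± 0.00935 of all peaks, but over whole peaks in 0.562% ± 0.200 against 0.639% ± 0.0311, a difference within the SD. RFX (GTTGCCAT) was in 0.324% ± 0.0129 against 0.974% ± 0.121, and NFI in 0.198% ± 0.0176 against 0.603% ± 0.0408. YY1 (AAGATGGCG) was in 0.683% ± 0.0238 against 0.387% ± 0.0192, and with the smaller peak list in 0.751% ± 0.0717 against 0.596% ± 0.0289. In the 150 bp windows, stretches of 1000 to under 2000 bp lay on the same side of all peaks for each of these words. Their means were 0.738% for EGR, 2.51% for AP-1, 0.641% for CTCF and 0.551% for NEUROD. For MEF2, RFX, NFI and YY1 they were 0.229%, 0.651%, 0.245% and 1.04%.

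Against the next shorter class, the ETS, NRF1 and CRE words were less frequent in broad-region windows. The ETS word CCGGAAGT was in 0.882% ± 0.00956 against 2.15% ± 0.013, and the NRF1 word GCGCATGCG in 0.681% ± 0.126 against 1.54% ± 0.0518. The CRE word TGACGTCA was in 1.01% ± 0.0618 against 1.62% ± 0.0744, and 0.617% ± 0.0894 of all peaks. In the 166 and 178 windows of broad regions without a start within 1 kb, SP/KLF fell to 4.36% ± 0.196 and AP-1 stood at 4.40% ± 1.45. A match gives the letters only, and no binding was measured.

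**Figure D5:**
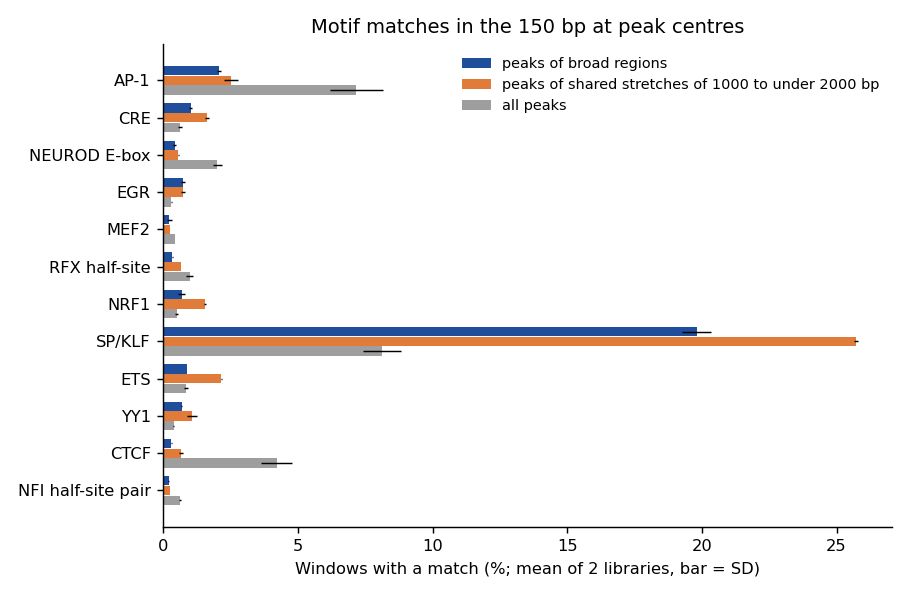
Percent of 150 bp windows at peak centres that hold each motif word (x axis), for peaks of broad regions, of shared stretches of 1000 to under 2000 bp and of the whole larger peak list; bars are means of 2 libraries and error bars the SD. SP/KLF stands at 19.8%, 25.7% and 8.11% in these 3 sets, and AP-1 at 2.05%, 2.51% and 7.16%.

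Stretches of 2000 bp or more that met no such stretch in the other library were less often promoters. Replicate 1 had 897 and replicate 2 had 193. A coding start lay in 60.9% and 52.3% of them, and their median CpG ratio was 0.567 and 0.402. The longest stretch of the other library at the same place had a median of 1195 bp and 1213 bp. It was 1000 bp or more in 518 of 897 and 112 of 193, and none overlapped in 100 and 27. Most of these stretches were thus present in the other animal at a shorter length.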

How the data were processed

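DNase-seq was analysed in 2 libraries of 1 group. Per the labels, reads were aligned to mm10. The aligner and callers: not given in the sources used here. The authors' deposited tables give, for each library alone, peaks with a signal (cut density height normalised to depth), footprints with their FDR as a fraction (0.01 throughout), and q-values, p-values adjusted to an FDR, for the cut rate at each place, listed below 0.05.

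Rows that touched were joined (bedtools 2.31.1), and regions, sequence and motifs were computed with Python 3.11.15, numpy 2.4.6, pandas 2.3.3, scipy 1.17.1 and numba 0.67.0. Genes came from GENCODE M21 and sequence from RefSeq GRCm38.p6, the same build as mm10. A start is that of any protein-coding transcript. The interval code was checked on simulated intervals. Of 418 list entries in 21 lists, 405 were found as protein-coding genes on chromosomes 1 to 19; Per1, Per2, Rorb and Lhx2 stand in more than 1 list. The members, lists, motifs and alternatives were chosen with earlier results of these data known. Regions were named by rule: the 12 longest with a coding start, the 10 longest without a start within 1 kb (both without regions of over 20% recurring 31-base words), those regions, 3 on each side of the length limit, those at listed genes, and the 3 extremes in gene starts, length ratio and footprints. Some items that the rule names are not reported here. Regions named otherwise are said to be so or belong to microRNA genes. No test was run, because there is 1 group, n = 2, and membership rests on the measured values. The spread is that of 2 animals. The alternatives were other length limits, FDR, gaps, overlaps and start definitions, each library alone, and for motifs whole peaks and the smaller peak list.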

Additional observations from a re-analysis of the deposited data

Results flagged for a closer look

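The sex chromosomes were outside the rule for broad regions. On chromosome X, replicate 1 had 30 stretches of 2000 bp or more and replicate 2 had 20, and 15 were shared. They lay among others at Ddx3x and Kdm6a (2454 and 2709 bp), genes known to be expressed from both X copies, and at Usp9x, Rps6ka3 (3343 and 3378 bp), Maoa, Cask and Nexmif. On chromosome Y, which these labelled females should lack, replicate 1 had 2 and replicate 2 had 1, and 1 was shared (90740913 to 90744993; 4052 and 4081 bp), with no annotated gene. No control sample gives a background for either.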

How the results depend on the processing

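No paired analysis was possible because there is only 1 group. The number of regions was 1947 at a minimum of 1500 bp, 79 at 3000 bp, 344 at an FDR below 0.01 and 1055 with gaps of up to 150 bp joined. Protein-coding genes with a start inside numbered 1951, 76, 338 and 972 under the same settings. With either library used alone, regions ranged from 792 to 1497, genes from 694 to 1180, the share with a coding start from 72.3% to 79.9%, the median CpG ratio from 0.665 to 0.718 and the median downstream minus upstream reach from 756 to 817 bp. The share with a coding start was 84.5% with gaps joined and 79.9% with outermost gene starts. The CpG ratio was 0.691 at 3000 bp and 0.701 with gaps joined. The reach difference was 605 bp at 1500 bp, 1476.5 bp at 3000 bp and 873 bp with gaps joined. It was 70 bp from the most downstream start and 662 bp where starts lay within 100 bp, both chosen after seeing the data. Only the reach difference could have changed sign, and it stayed positive. Requiring 50% overlap or leaving out regions of recurring words changed the 5 results by less than these spreads. Whole peaks gave higher shares than 150 bp windows for all 12 motifs (SP/KLF 36.1%). With the smaller peak list, the share in peaks of broad regions was 0.714% ± 0.176 against 0.751% ± 0.0767 of all peaks for NRF1, within the SD, and 0.861% against 1.28% for ETS. The part of depth in stretch length, and the causes of these changes, were not tested.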

Other observations

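Gene families, chosen by symbol after their values were seen, differed in how many members had a broad region, against 2.85% of all protein-coding genes. Among protocadherin genes outside the large clusters, 5 of 10 had one (Pcdh1, Pcdh7, Pcdh8, Pcdh10 and Pcdh17). Eph receptor and ephrin genes, which guide axons, had 5 of 21 (Efna5, Epha4, Epha6, Epha7 and Ephb1). Kruppel-like factor genes had 4 of 16 (Klf7, Klf10, Klf12 and Klf13), SOCS genes 3 of 7 and the RNA-binding MEX3 genes 2 of 4 (Mex3b and Mex3c). Lysine methyltransferase and demethylase genes had 6 of 23, EGR genes 3 of 4, SOX genes 3 of 18 and POU genes 3 of 14. BTB zinc finger genes had 5 of 40, forkhead genes 3 of 41, voltage-gated potassium channel genes 2 of 33 and dual specificity phosphatase genes 1 of 22. Zinc finger genes named Zfp had 9 of 385, solute carriers 5 of 321, olfactory receptors 0 of 1087 and keratins 0 of 49. These are counts without a test.

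Broad regions seldom stood side by side: the median distance between neighbours was 2694 kb, and 11 pairs lay under 10 kb apart. Nr1d1 and Thra, a clock repressor gene and a thyroid hormone receptor gene that overlap tail to tail, shared a region of 4260 and 5461 bp in replicates 1 and 2 with a CpG ratio of 0.330 and heights of 1.84 and 2.03. It held a start of a noncoding Nr1d1 transcript and no protein-coding one.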
